A study of Mus musculus with 11 samples.

Results

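The genes of DNA replication and nucleotide synthesis were followed in Treg cells of visceral adipose tissue (VAT) and of lymphoid organs, with and without an agonist peptide. The set held 45 listed genes that encode licensing factors, the replicative helicase, polymerases, clamp loaders, deoxynucleotide enzymes and chromatin factors of the fork. A listed gene counted as a member when its mean count, scaled to the mean library total, was above 10 in at least 1 of the 4 groups. All 45 passed, of 52997 genes in the deposited table and 12932 that met the same limit, and 0 listed genes lay below it. The members nearest to the limit were Fen1 and Orc1, whose highest group means were 62.9 and 73.6.

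The cells were Treg cells carrying the transgenic vTreg53 T cell receptor, whose receptor came from a single VAT Treg clone. They were taken from spleen and lymph nodes of donor mice and transferred into CD45.1 B6 recipients, which keep their own Treg cells. Recipients received Fat1562, a surrogate agonist peptide of this receptor, in CFA at 6 weeks after transfer and in IFA at 1 week after that, or the adjuvants alone, and clonotype+ cells were sorted from spleen and lymph nodes (Spl/LN) or VAT. This gave 3 libraries of VAT Fat1562 and 2 of VAT adjuvant alone, beside 3 each of Spl/LN with Fat1562 and with adjuvant alone, all labelled 15wk, strain C57BL/6 and genotype vTreg53 Tg+. The labels call the controls unimmunized and name PBS, while the study describes adjuvant alone, and the latter name is used here. Each library came from 1000 sorted cells, and how many recipients stood behind a library is not given in the sources used here, so p-values measure the spread between libraries only.

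A cell that divides first loads the MCM2-7 helicase onto origins, with the help of the origin recognition complex, Cdc6 and Cdt1. Cdc45 and the GINS complex then turn the loaded ring into an active helicase, primase with polymerase alpha starts each new strand, and polymerases delta and epsilon extend it on the PCNA clamp. Ribonucleotide reductase, thymidylate synthase and thymidine kinase supply the deoxynucleotides, and many of these genes are transcribed at the G1/S boundary by E2F factors. Treg cells in VAT are known to accumulate through local clonal expansion. In bulk samples such as these, more cells in S phase and more RNA per cell cannot be told apart.

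Library totals ran from 4490242 counts in VAT adjuvant alone replicate 2 to 6570057, and the 45 members took from 0.303% to 0.588% of a library. The 7 Treg markers (Foxp3, Il2ra, Ctla4, Ikzf2, Cd4, Cd3e and Cd3g) were all present, with summed normalized counts from 28325 to 46169. The sum of the 5 VAT Treg markers (Pparg, Il1rl1, Gata3, Klrg1 and Ccr2) was higher in each VAT library (17570 to 33149) than in any Spl/LN library (10037 to 14721). By itself, Klrg1 overlapped between the tissues, with 8835 in Spl/LN Fat1562 replicate 2 and 8702 in VAT Fat1562 replicate 2. Of the plasma cell markers, Jchain reached 1734 normalized counts in VAT adjuvant alone replicate 2 and 526 in Spl/LN adjuvant alone replicate 2, with at most 63.0 in the other 9 libraries. The sums of its 4-gene list (Jchain, Sdc1, Mzb1 and Xbp1) were 1561 and 3382 in VAT adjuvant alone, 1382 to 1807 in VAT Fat1562, 972 to 1545 in Spl/LN adjuvant alone and 1018 to 1130.5 in Spl/LN Fat1562. The summed B cell markers stayed between 69.8 and 226, the macrophage and monocyte markers between 17.2 and 112, and the adipocyte markers between 0 and 10.1, far below the Treg sums.

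Among the VAT adjuvant alone libraries, replicate 2 stood apart for the members. It was lower than replicate 1 for 43 of 45 members, with a median log2 ratio of replicate 1 to replicate 2 of 0.41, against 0.00 over all tested genes, of which 50.3% were higher in replicate 1. The members took 0.415% of counts in replicate 1 and 0.303% in replicate 2. Of the 45 members, 22 had the lowest value of all 11 libraries in this library. It is also the library with the fewest counts and with the Jchain and Mzb1 signal given above, and the part of either in the low member values was not tested. The counts of called members and the list counts that compare with VAT adjuvant alone are therefore given with and without it. At the other end, VAT Fat1562 replicate 2 held the highest value of the 11 libraries for 26 members and was above the gene's own mean for 45 of 45. For these counts of lowest and highest values, the shares over all tested genes were not computed.

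**Figure D1:**
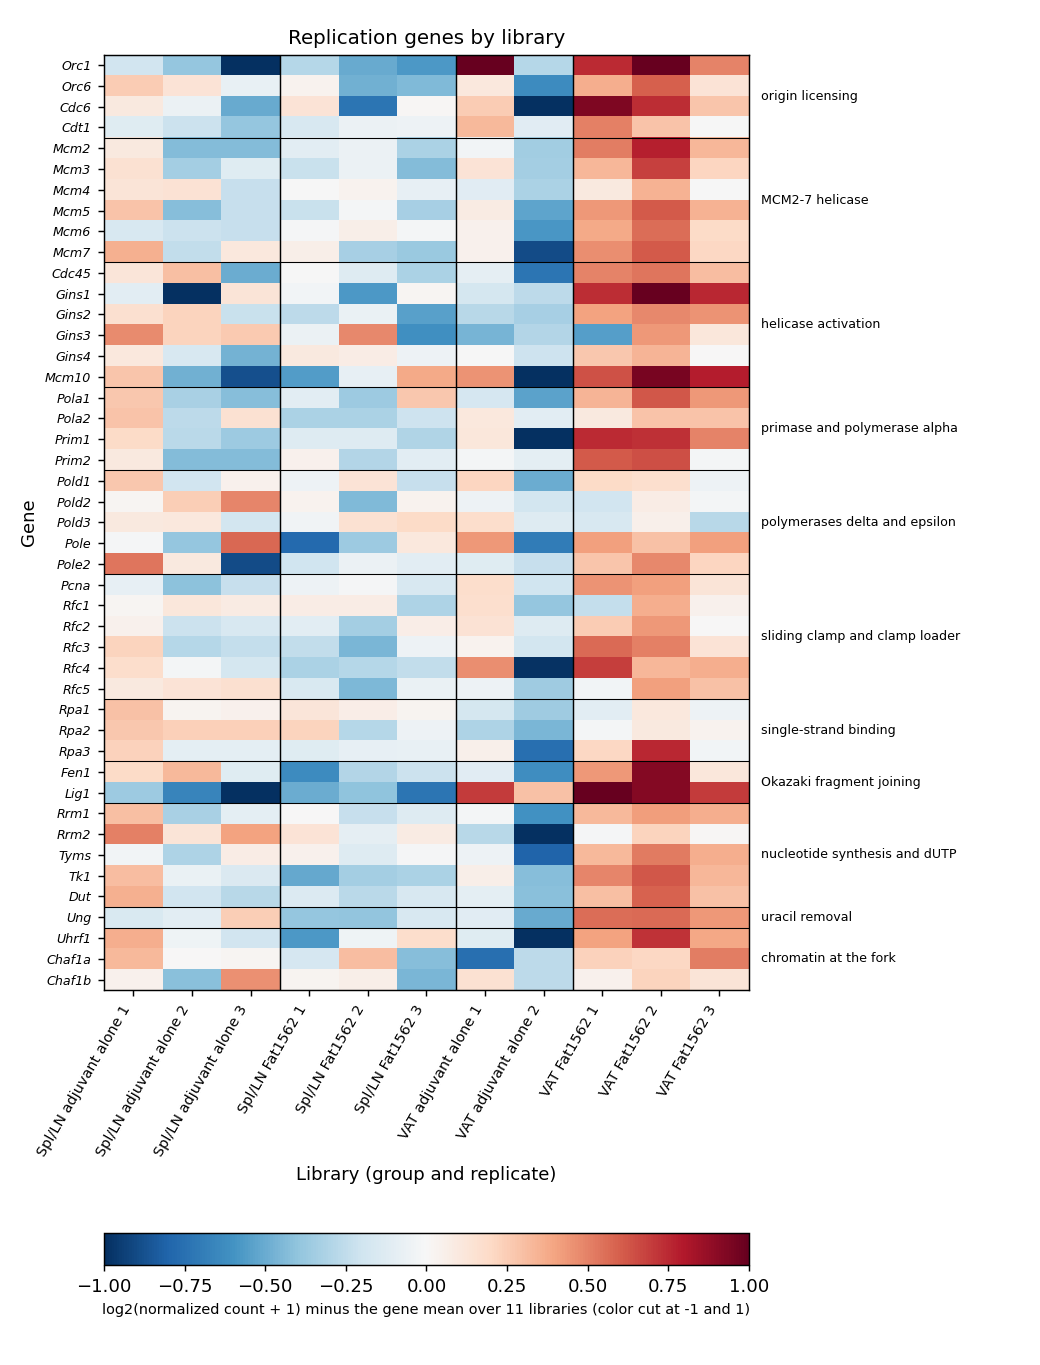
Each row is 1 of the 45 genes, grouped by role, and each column 1 of the 11 libraries. Color gives log2(normalized count + 1) minus the gene's mean over the 11 libraries, cut at -1 and 1. The VAT Fat1562 columns are mostly red, and VAT adjuvant alone replicate 2 is blue for nearly every gene, with a value above the gene's mean for 1 of 45.

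Levels per kilobase were taken over the merged exons of all annotated transcripts of a gene, such as 11012 bases for Rrm1 and 2771 for Rrm2. The order of the members therefore depends on the annotation as well as on the counts. Per kilobase of exon, and as a mean over the 11 libraries, Mcm6 had the highest level of the members, at 581 normalized counts per kilobase. It was followed by Mcm3 at 441, the ribonucleotide reductase subunit Rrm2 at 418 and Mcm5 at 349. Mcm4 (329), Mcm7 (220.5) and Mcm2 (180.2) completed the helicase, so its 6 subunits were among the more abundant members. The lowest levels per kilobase belonged to Mcm10 (12.4), the polymerase epsilon catalytic subunit Pole (12.8) and the origin recognition subunit Orc1 (13.8). The order differed between groups, since Rrm2 (516) exceeded Mcm6 (494) in Spl/LN adjuvant alone, and Orc1 was at 7.28 and 8.31 in the Spl/LN groups but at 19.8 and 21.9 in the VAT groups.

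The question was then asked whether Fat1562 changed these genes in VAT. With the peptide, 44 of 45 members were higher than with adjuvant alone, by a median log2 fold change of 0.55, against 0.01 over all 12932 tested genes. Of the members, 14 (31.1%) were called higher at an adjusted p under 0.05 from edgeR, while 4.32% of all tested genes were called higher. Called lower were 0 members, where 3.97% of all genes were, and 0 were lower at an unadjusted p under 0.05. The called members were Mcm2, Mcm5, Mcm6, Mcm7, Cdc45, Pola1, Prim1, Rrm1, Rrm2, Tyms, Tk1, Dut, Uhrf1 and Chaf1a. In 31 members all 3 VAT Fat1562 libraries lay above both VAT adjuvant alone libraries, as did 21.1% of all tested genes. The summed VAT Treg markers also differed between these groups, at 32539 and 33149 with adjuvant alone and 17570 to 23239 with Fat1562. Of the endothelial markers, Pecam1 was at 293 and 235 and at 585, 590.2 and 413, while Cdh5 and Kdr stayed at or below 5.00 in these libraries. Mitochondrial genes took 1.09% and 1.18% of counts with adjuvant alone and 0.856% to 0.982% with Fat1562, and the 50 most abundant genes 17.5% and 17.1% against 15.5% to 15.9%, so both measures moved with the groups. The part of these values in the member values was not tested.

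Of the MCM2-7 helicase, 4 of 6 subunits were called. Mcm6 (chr1:128331590-128359664, GRCm38) had 2734 and 1772 normalized counts in VAT adjuvant alone and 3445, 3908 and 3036 in VAT Fat1562. The Spl/LN libraries had 2370.2, 2289 and 2257 in Spl/LN adjuvant alone and 2627, 2773 and 2621 in Spl/LN Fat1562. The VAT groups did not overlap, with a mean of 2253 ± 681 (SD, n = 2) for the controls and 3463 ± 436 (SD, n = 3) after the peptide. The VAT effect by log2 was 0.62 (log2, SE 0.14, edgeR adjusted p = 0.0103), a 1.54-fold difference. Mcm2 (chr6:88883474-88898780) had 1188 and 951 normalized counts in VAT adjuvant alone and 1722, 2067 and 1519 in VAT Fat1562, and 1294, 895 and 896 in Spl/LN adjuvant alone and 1125, 1158 and 972 in Spl/LN Fat1562. Every VAT Fat1562 library exceeded the other 8, and the change in VAT was 0.73 (log2, SE 0.17, edgeR adjusted p = 0.0112). Mcm5 (chr8:75109569-75128439) gave 1430.2 and 938 normalized counts in VAT adjuvant alone and 1821, 2070.2 and 1718 in VAT Fat1562, and 1642, 1007 and 1149.7 in Spl/LN adjuvant alone and 1157, 1329.6 and 1071 in Spl/LN Fat1562. Its VAT groups were also apart, by 0.66 (log2, SE 0.19, edgeR adjusted p = 0.0406). Mcm7 was called at a log2 fold change of 0.78 (log2, SE 0.23, edgeR adjusted p = 0.0414), with 29.2% of its 38-base transcript stretches found in other genes too. Mcm3 (0.51) and Mcm4 (0.36) were higher by log2 without being called.

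The promoters of these genes were then read, since E2F factors act there. The RefSeq promoter table (GRCm38.p6, 250 bases before to 50 after the start) held 38 of the 45 members, 5 of them with more than 1 start. E2F motifs, searched as TTTCCCGC, TTTGGCGC, TTTCGCGC or TTTGCCGC on both strands with overlapping matches counted apart, stood in 15 of 38 (39.5%). The share was 2.26% of all 32851 promoters and 4.75% of the 9219 tested genes with a promoter. CCAAT, the box bound by NF-Y, stood in 23 of 38 (60.5%), against 37.4% of all promoters and 43.1% of tested genes. By peptide response in VAT, the E2F letters were present in 5 of 14 called members and in 10 of 24 others, and CCAAT in 11 of 14 and 12 of 24. The 250 bases before the start are shown for the 4 called members with an E2F match there and no annotated exon, with the matches in capitals. In GENCODE vM21, the windows of Mcm6, Mcm5 and Pola1 lie outside any gene, and that of Uhrf1 lies in an intron of Uhrf1, before a RefSeq start that lies inside the gene. The other Uhrf1 promoter, chr17:56303087-56303386, held 0 E2F matches. A member was counted above when any of its promoters held a match.
Mcm6, chr1:128359706-128359955, minus strand: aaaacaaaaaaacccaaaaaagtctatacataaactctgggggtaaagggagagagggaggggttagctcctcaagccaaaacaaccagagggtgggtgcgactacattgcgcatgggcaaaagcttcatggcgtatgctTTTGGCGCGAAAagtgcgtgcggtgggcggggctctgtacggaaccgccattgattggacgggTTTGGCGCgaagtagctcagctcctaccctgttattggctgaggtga
Mcm5, chr8:75109259-75109508, plus strand: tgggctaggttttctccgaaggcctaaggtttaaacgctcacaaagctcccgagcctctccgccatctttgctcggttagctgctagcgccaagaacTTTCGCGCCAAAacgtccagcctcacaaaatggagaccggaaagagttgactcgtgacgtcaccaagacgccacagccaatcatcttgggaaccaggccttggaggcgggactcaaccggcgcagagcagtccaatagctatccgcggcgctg
Uhrf1, chr17:56304063-56304312, plus strand: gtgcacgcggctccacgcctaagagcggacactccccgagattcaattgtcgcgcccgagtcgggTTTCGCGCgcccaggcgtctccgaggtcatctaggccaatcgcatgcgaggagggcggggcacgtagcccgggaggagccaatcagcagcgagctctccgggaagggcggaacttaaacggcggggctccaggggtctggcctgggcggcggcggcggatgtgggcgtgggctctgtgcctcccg
Pola1, chrX:93632156-93632405, minus strand: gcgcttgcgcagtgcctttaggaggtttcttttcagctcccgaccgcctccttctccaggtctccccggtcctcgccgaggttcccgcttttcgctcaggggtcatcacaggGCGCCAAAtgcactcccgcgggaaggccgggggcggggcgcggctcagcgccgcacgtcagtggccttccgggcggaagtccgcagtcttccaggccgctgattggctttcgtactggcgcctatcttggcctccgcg
The Mcm6 window held 3 matches, at 110, 106 and 47 bases before the start, the farther pair overlapping, and Mcm5 held overlapping matches at 153 and 149 bases. Uhrf1 and Pola1 had 1 match each, at 185 and 138 bases. A match of letters is a description and was not tested for binding.

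Of the genes that activate the helicase, Cdc45 was the only called member of 6. Cdc45 (chr16:18780447-18811987), which joins MCM2-7 and GINS at the fork, had 235 and 149.9 normalized counts in VAT adjuvant alone and 353, 363 and 309.5 in VAT Fat1562. In the lymphoid organs its counts were 272, 309 and 177 with adjuvant alone and 249, 228 and 200.5 with Fat1562. All 3 peptide libraries of VAT were above both controls, by 0.82 (log2, SE 0.23, edgeR adjusted p = 0.0383). Gins1, a GINS subunit, had the largest change of any uncalled member. It had 41.3 and 38.7 normalized counts in VAT adjuvant alone and 78.8, 103 and 79.4 in VAT Fat1562, a log2 difference of 1.12 (log2, SE 0.43, edgeR adjusted p = 0.131). The other log2 differences were 0.75 for Gins2, 0.44 for Gins3, 0.31 for Gins4 and 1.01 for Mcm10.

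Primase and polymerase alpha lay next in order. Prim1 (chr10:128015168-128030037), the catalytic primase subunit, had 279 and 121 normalized counts in VAT adjuvant alone and 435, 430.1 and 365 in VAT Fat1562, and 296, 214 and 201 in Spl/LN adjuvant alone and 236, 237 and 210.1 in Spl/LN Fat1562. VAT Fat1562 was above all other libraries, and the log2 fold change in VAT of 1.02 (log2, SE 0.26, edgeR adjusted p = 0.0211) corresponded to 2.03-fold. The VAT controls of this gene lay far apart, with replicate 2 the lowest of the 11 libraries. Pola1 (chrX:93304767-93632155), the catalytic subunit of polymerase alpha, had 217 and 169 normalized counts in VAT adjuvant alone and 309.6, 377 and 331 in VAT Fat1562. Its Spl/LN values were 295, 195 and 182 with adjuvant alone and 227, 191 and 295 with Fat1562. They overlapped VAT adjuvant alone and lay below each VAT Fat1562 library. The change in VAT was 0.81 (log2, SE 0.23, edgeR adjusted p = 0.0408). Pola2 and Prim2, their partner subunits, were at 0.22 and 0.50 by log2 and were not called.

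The nucleotide enzymes among the members were all called higher, 5 of 5, with log2 fold changes in VAT from 0.65 to 0.78, where 4.32% of all tested genes were. The 14 other deoxynucleotide genes, described below, had 1 called higher, 1 called lower and a median of -0.20. Tyms (chr5:30058202-30073617), the thymidylate synthase, had 486 and 289.9 normalized counts in VAT adjuvant alone and 633, 724 and 648 in VAT Fat1562. In Spl/LN it had 495, 407 and 531 with adjuvant alone and 519.6, 461 and 501 with Fat1562, below each VAT Fat1562 library. The peptide effect in VAT was 0.78 (log2, SE 0.18, edgeR adjusted p = 0.0117). For Rrm1 (chr7:102441695-102469771), the large subunit of ribonucleotide reductase, the libraries held 1201 and 803 normalized counts in VAT adjuvant alone and 1528, 1628 and 1569 in VAT Fat1562, and 1503, 977 and 1141 in Spl/LN adjuvant alone and 1225, 1038 and 1115 in Spl/LN Fat1562. The VAT libraries with peptide lay within a narrow range above the others, and the effect was 0.65 (log2, SE 0.17, edgeR adjusted p = 0.0239).

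Rrm2 (chr12:24708241-24714146), the small and limiting subunit of the same enzyme, had another order of groups. It had 924 and 517 normalized counts in VAT adjuvant alone and 1112, 1305 and 1129 in VAT Fat1562, and 1587, 1223 and 1482 in Spl/LN adjuvant alone and 1228, 1050.2 and 1183 in Spl/LN Fat1562. The lowest group was VAT adjuvant alone, and the VAT Fat1562 libraries lay in the range of Spl/LN, so that the VAT difference was 0.71 (log2, SE 0.18, edgeR adjusted p = 0.0213). Tk1 (chr11:117815526-117826092), the thymidine kinase of S phase, had 442 and 316 normalized counts in VAT adjuvant alone and 597, 655 and 535 in VAT Fat1562, and 526, 406 and 384 in Spl/LN adjuvant alone and 298, 335 and 341 in Spl/LN Fat1562. Its VAT groups did not overlap, with 0.65 (log2, SE 0.17, edgeR adjusted p = 0.0275), and its Spl/LN groups were apart in the other direction. Dut (chr2:125247190-125258608), which removes dUTP, had 478 and 384 normalized counts in VAT adjuvant alone and 634, 773 and 629 in VAT Fat1562, and 658, 449.7 and 423 in Spl/LN adjuvant alone and 467, 426 and 460.3 in Spl/LN Fat1562. The highest Spl/LN adjuvant alone library exceeded the lowest VAT Fat1562 library, while within VAT the effect was 0.65 (log2, SE 0.18, edgeR adjusted p = 0.0314). Ung, the uracil glycosylase, just missed the threshold, with a log2 fold change of 0.82 (log2, SE 0.25, edgeR adjusted p = 0.051).

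Uhrf1 (chr17:56303321-56323486) keeps DNA methylation on newly made strands. It had 458 and 236 normalized counts in VAT adjuvant alone and 659, 822 and 649 in VAT Fat1562, and 642, 482 and 434 in Spl/LN adjuvant alone and 334, 482 and 562 in Spl/LN Fat1562. All VAT Fat1562 libraries were above all others, and the effect in VAT was 1.03 (log2, SE 0.25, edgeR adjusted p = 0.0169), with 20.5% of its stretches found elsewhere. Chaf1a, a chromatin assembly subunit that shares 50.4% with its neighbor Ubxn6, was called at 0.82 (log2, SE 0.24, edgeR adjusted p = 0.0453), and Chaf1b was at 0.17 without a call.

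The remaining roles held no called member. Origin licensing (Orc1, Orc6, Cdc6 and Cdt1) had log2 fold changes from 0.13 to 0.95, the sliding clamp Pcna and its loaders Rfc1 to Rfc5 from 0.15 to 0.55, and the single-strand binding proteins Rpa1 to Rpa3 from 0.25 to 0.64. Okazaki fragment genes were at 0.41 (Lig1) and 0.88 (Fen1). Polymerases delta and epsilon had the lowest median, 0.20, and Pold3 was the only member of the 45 below 0, at -0.15 (log2, SE 0.16, edgeR adjusted p = 0.639). The smallest uncalled difference was that of Pold2, the accessory subunit of polymerase delta, with 393 and 359.8 normalized counts in VAT adjuvant alone and 357, 429 and 403 in VAT Fat1562 and a log2 fold change of 0.07 (log2, SE 0.17, edgeR adjusted p = 0.869).

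**Figure D2:**
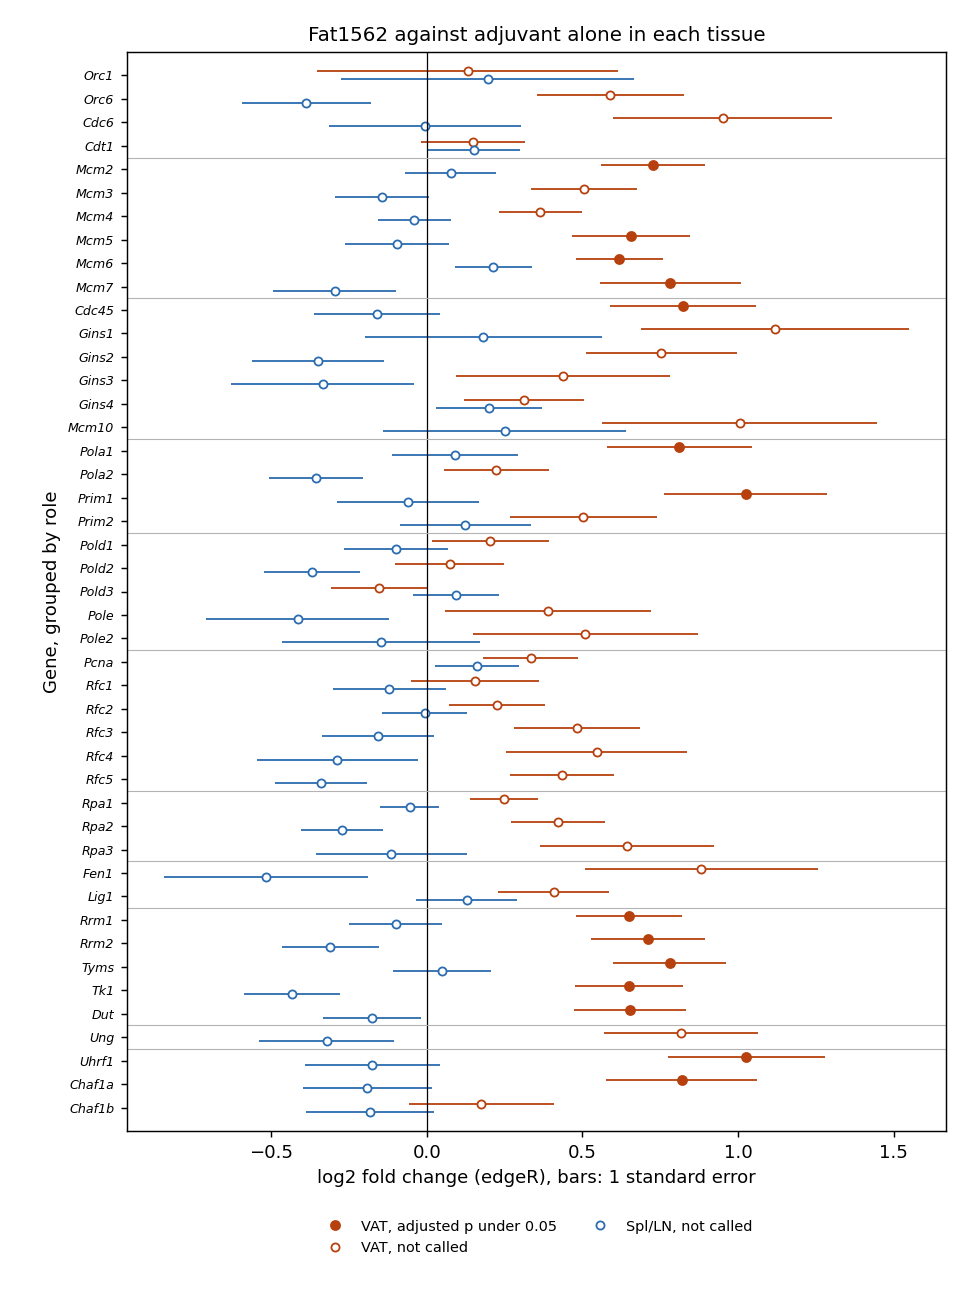
The log2 fold change of Fat1562 against adjuvant alone is plotted for each of the 45 genes, in VAT (red) and in Spl/LN (blue), with bars of 1 standard error. Filled points mark an adjusted p under 0.05 from edgeR. In VAT 44 genes lie right of 0 and 14 are filled, and in Spl/LN no point is filled.

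These calls depended on single libraries. Without VAT adjuvant alone replicate 2, 37 of 45 members were still higher, by a median log2 fold change of 0.35, but 0 were called, and the 14 called members had log2 fold changes from 0.34 to 1.08 at adjusted p-values from 0.0663 to 0.427 from edgeR. Without VAT Fat1562 replicate 2, 42 were higher, by a median of 0.44, and 0 were called, with adjusted p-values of the 14 from 0.0542 to 0.146. The count was 7 without VAT Fat1562 replicate 1, 9 without replicate 3, and 15 without VAT adjuvant alone replicate 1, when the median was 0.82. Against VAT adjuvant alone replicate 1 alone, all 3 peptide libraries were above it for 31 of 45 members. The share of all tested genes with this order was not computed, so this count cannot be set against a background. The count over all genes was 1073 in the fit of all libraries, 509 without VAT adjuvant alone replicate 2 and 631 without VAT Fat1562 replicate 2.

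**Figure D3:**
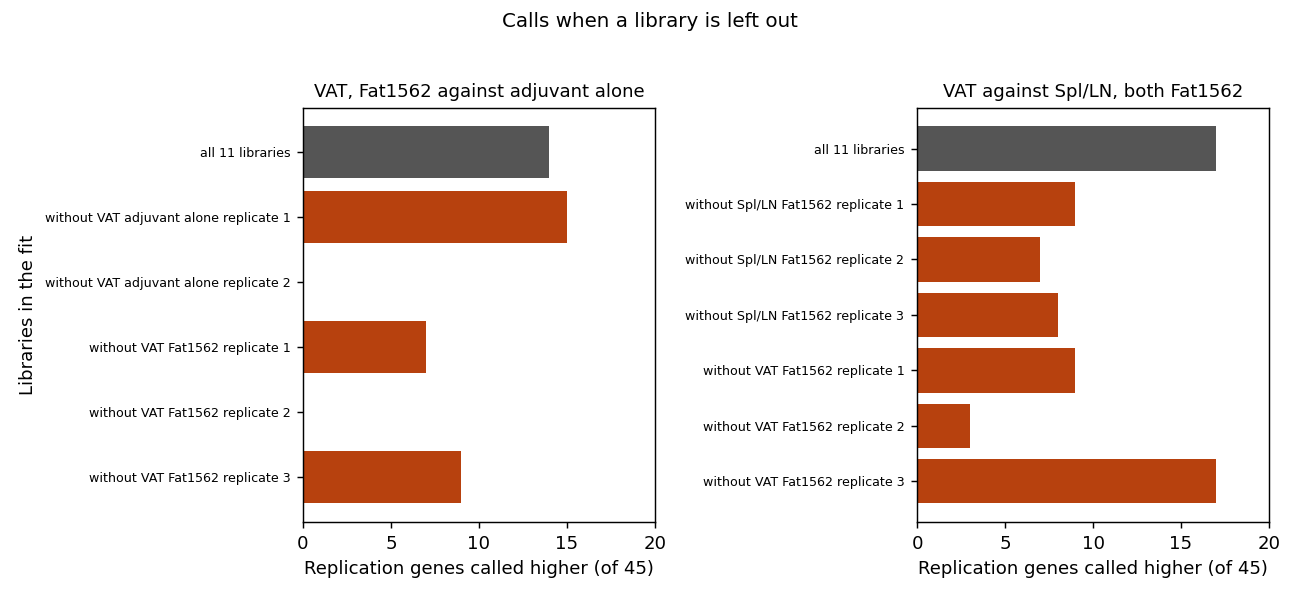
Bars give how many of the 45 genes were called higher when the named library was left out, with all 11 libraries in grey. In VAT, Fat1562 against adjuvant alone, the count falls from 14 to 0 without VAT adjuvant alone replicate 2 or VAT Fat1562 replicate 2, and in VAT against Spl/LN, both with Fat1562, it ranges from 3 to 17.

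In Spl/LN the same comparison was made. With Fat1562, 13 members were higher and 32 lower than with adjuvant alone, with a median log2 fold change of -0.12, while over all tested genes it was about 0. Called members were 0 in either direction by edgeR, DESeq2 and limma, where edgeR called 2.58% of all tested genes higher and 1.40% lower. At an unadjusted p under 0.05, 4 members were lower and 0 higher, where 18.3% of all tested genes had such a p in either direction. The change nearest to a call was that of Tk1, at -0.43 (log2, SE 0.15, edgeR adjusted p = 0.131), with the values given above, and Fen1 had the lowest value, -0.52 (log2, SE 0.33, edgeR adjusted p = 0.435). The 3 peptide libraries lay wholly below the controls in 6 members (Rfc4, Rfc5, Rpa2, Fen1, Tk1 and Ung), as in 9.84% of all tested genes, and wholly above them in 1, as in 11.4%. The latter was Mcm6, with a log2 fold change of 0.21 (log2, SE 0.12, edgeR adjusted p = 0.389). Spl/LN adjuvant alone replicate 1 had the highest value of the 6 Spl/LN libraries in 24 members, a count whose share over all tested genes was not computed. Without this library the median moved to 0.02, with 26 members higher.

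Whether the peptide effect differed between the tissues was tested by the interaction of tissue and peptide in the same fit. The VAT effect exceeded the Spl/LN effect for 42 of 45 members, by a median of 0.73 on the log2 scale, against 0.01 over all tested genes. By edgeR, 2 members were called with a greater effect in VAT (4.44%) and 0 were called with a smaller one, where 1.70% and 2.02% of all genes were called. The members called were Tk1, with an interaction of 1.08 (log2, SE 0.23, edgeR adjusted p = 0.0131), and Rrm2, with 1.02 (log2, SE 0.24, edgeR adjusted p = 0.0229). Their values were given above: both rose in VAT with the peptide, and in Spl/LN their log2 fold changes were -0.43 and -0.31. At an unadjusted p under 0.05 there were 25 members, all with the greater effect in VAT, as were 16.9% of all tested genes in either direction. DESeq2 called 11 members, and without VAT adjuvant alone replicate 2 edgeR called 0, with a median of 0.48. It called 11 without VAT adjuvant alone replicate 1, 1 without Spl/LN adjuvant alone replicate 1 or VAT Fat1562 replicate 2, and 2 to 6 without any other library. For the other members the tissue difference of the peptide effect did not pass the test.

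**Figure D4:**
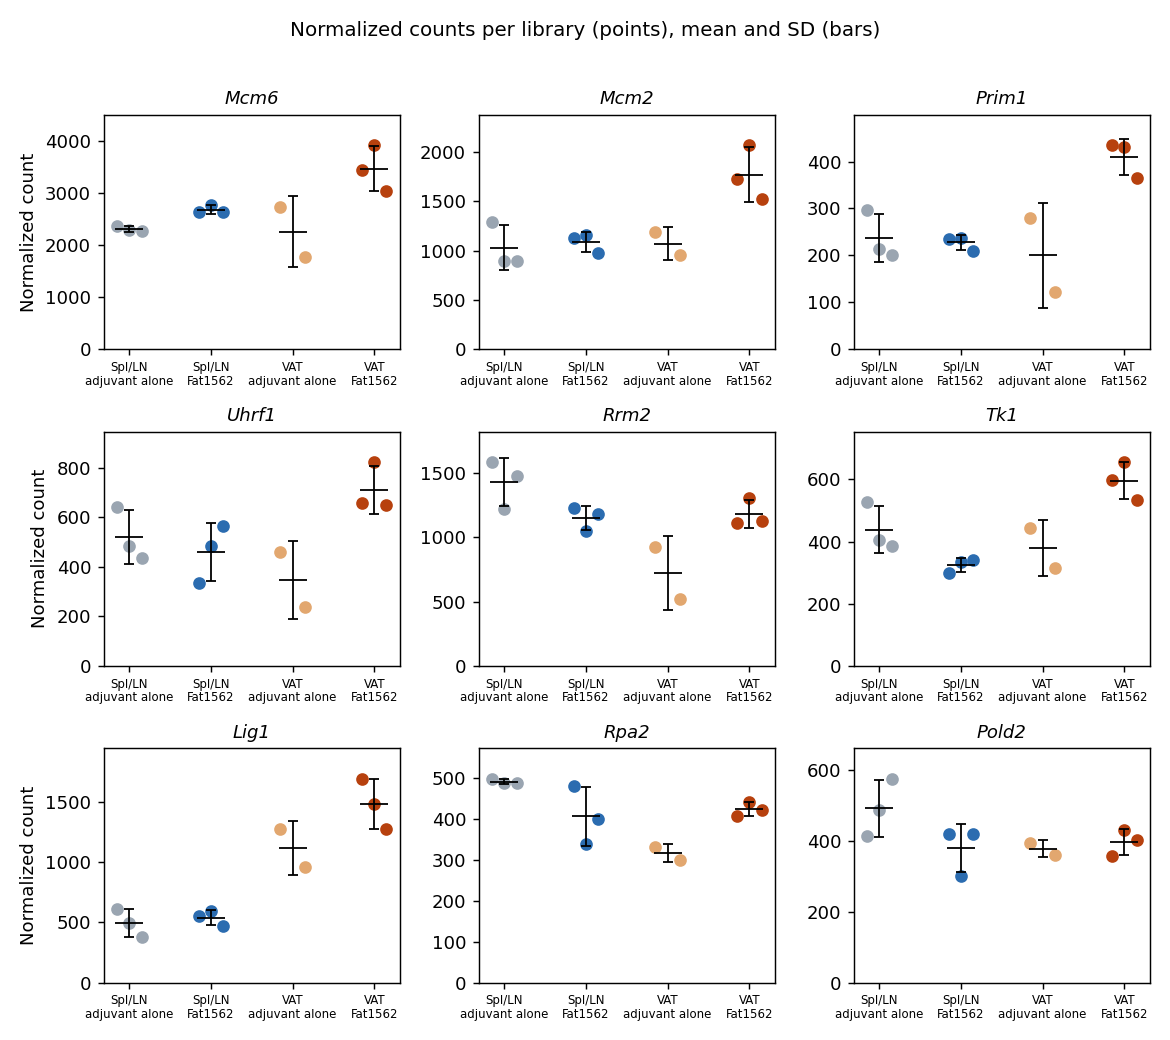
Normalized counts of 9 genes in each library (points), by group, with the mean and SD of the group as bars. Tk1 and Rrm2 have the called interaction, Lig1 is higher in VAT in both conditions, Rpa2 is lower in VAT with adjuvant alone, and Pold2 has the smallest uncalled difference in VAT.

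The tissues were next compared within each condition. With adjuvant alone, 32 members were lower in VAT than in Spl/LN and 13 higher, with a median log2 fold change of -0.20. Lig1 alone (1 member, 2.22%) was called higher, where 9.09% of all tested genes were, and 3 (6.67%) were called lower, where 7.17% were, so the members' shares were no larger than those of all genes. In 8 members VAT lay wholly below Spl/LN and in 2 wholly above it, against 20.4% and 21.0% of all tested genes. Rrm2, whose values were given above, was lower in VAT, with a difference of -0.99 (log2, SE 0.18, edgeR adjusted p = 0.000993). Rpa2 (chr4:132768332-132778752), a subunit of the single-strand binding protein, had 331 and 299.9 normalized counts in VAT adjuvant alone and 406, 441 and 421 in VAT Fat1562, and 497, 486 and 487 in Spl/LN adjuvant alone and 480.4, 338 and 398 in Spl/LN Fat1562. With adjuvant alone the tissues did not overlap, with a log2 difference of -0.63 (log2, SE 0.15, edgeR adjusted p = 0.00762). Rpa1 (chr11:75298166-75348324), the large subunit, had 1413 and 1246 normalized counts in VAT adjuvant alone and 1484, 1714 and 1538 in VAT Fat1562, and 1954, 1628 and 1647 in Spl/LN adjuvant alone and 1734, 1669 and 1628 in Spl/LN Fat1562. Its difference was -0.39 (log2, SE 0.11, edgeR adjusted p = 0.0198), smaller than that of Rpa2 and again without overlap. Without VAT adjuvant alone replicate 2 the count of lower members fell to 1 and the median moved to 0.03, and without replicate 1 they were 8 and -0.45.

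Lig1 (chr7:13277283-13311433), the ligase that joins Okazaki fragments, was the member called higher in VAT in this condition. It had 1273 and 959.5 normalized counts in VAT adjuvant alone and 1689.7, 1482 and 1274 in VAT Fat1562, and 609, 497 and 375 in Spl/LN adjuvant alone and 554, 593 and 472 in Spl/LN Fat1562. Each VAT library exceeded each Spl/LN library, by a log2 difference of 1.18 (log2, SE 0.18, edgeR adjusted p = 0.000135) with adjuvant alone and 1.46 (log2, SE 0.16, edgeR adjusted p = 5.43e-06) with Fat1562, and both calls were kept under every alternative and with each library left out. Its 247 exon bases that overlap Zswim9 on the other strand involve 4.95% of its stretches. The peptide effect on Lig1 did not pass the test in either tissue, with 0.41 (log2, SE 0.18) in VAT and 0.13 (log2, SE 0.16) in Spl/LN. Orc1 had a similar order of means at low counts, with 105 and 32.5 normalized counts in VAT adjuvant alone and 67.5, 104 and 56.6 in VAT Fat1562. It had at most 34.8 in any Spl/LN library, and its VAT controls lay far apart.

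With Fat1562 in both tissues, a comparison that shares its VAT Fat1562 libraries with the peptide comparison in VAT, 43 members were higher in VAT, by a median log2 fold change of 0.51. Of the members, 17 (37.8%) were called higher by edgeR, where 8.26% of all tested genes were, and 0 were called lower, where 6.73% were, with 0 lower at an unadjusted p under 0.05. In 31 members the VAT libraries all lay above the Spl/LN libraries, as in 18.8% of all tested genes. The called members were Orc1 and Orc6 of licensing, Mcm2, Mcm3, Mcm5 and Mcm7 of the helicase, Gins2, Pola2, Prim1, the clamp and loader genes Pcna, Rfc3 and Rfc5, Lig1, the nucleotide genes Rrm1, Tk1 and Dut, and Ung.

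By the size of p, Lig1 was followed by Tk1, at 0.87 (log2, SE 0.15, edgeR adjusted p = 0.000677), and Mcm2, at 0.71 (log2, SE 0.15, edgeR adjusted p = 0.00297). Mcm3 (chr1:20802968-20820312) had 1772 and 1273 normalized counts in VAT adjuvant alone and 2029, 2595 and 1867 in VAT Fat1562, and 1792, 1277 and 1481 in Spl/LN adjuvant alone and 1384, 1551 and 1191 in Spl/LN Fat1562. Its libraries with peptide were apart between tissues, by 0.65 (log2, SE 0.15, edgeR adjusted p = 0.00656), while those with adjuvant alone overlapped. The difference of Mcm5 was 0.66 (log2, SE 0.17, edgeR adjusted p = 0.0117). Ung (chr5:114130386-114139323), which cuts uracil from DNA, had 90.2 and 68.7 normalized counts in VAT adjuvant alone and 144, 145 and 132 in VAT Fat1562, and 87.9, 90.8 and 116 in Spl/LN adjuvant alone and 74.5, 73.9 and 87.4 in Spl/LN Fat1562. VAT Fat1562 stood above the other 8 libraries, with a tissue difference of 0.83 (log2, SE 0.22, edgeR adjusted p = 0.0135). Rrm2, in contrast to its difference with adjuvant alone, was at 0.03 (log2, SE 0.16). Leaving out VAT Fat1562 replicate 2 reduced the count to 3 (Lig1, Mcm2 and Tk1), and it was 9 without VAT Fat1562 replicate 1 and 17 without replicate 3. Without Spl/LN Fat1562 replicates 1, 2 and 3 in turn, it was 9, 7 and 8. A fit of these 2 groups alone called 29, and over all tested genes it called 1432 higher, against 1068 in the main fit.

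**Figure D5:**
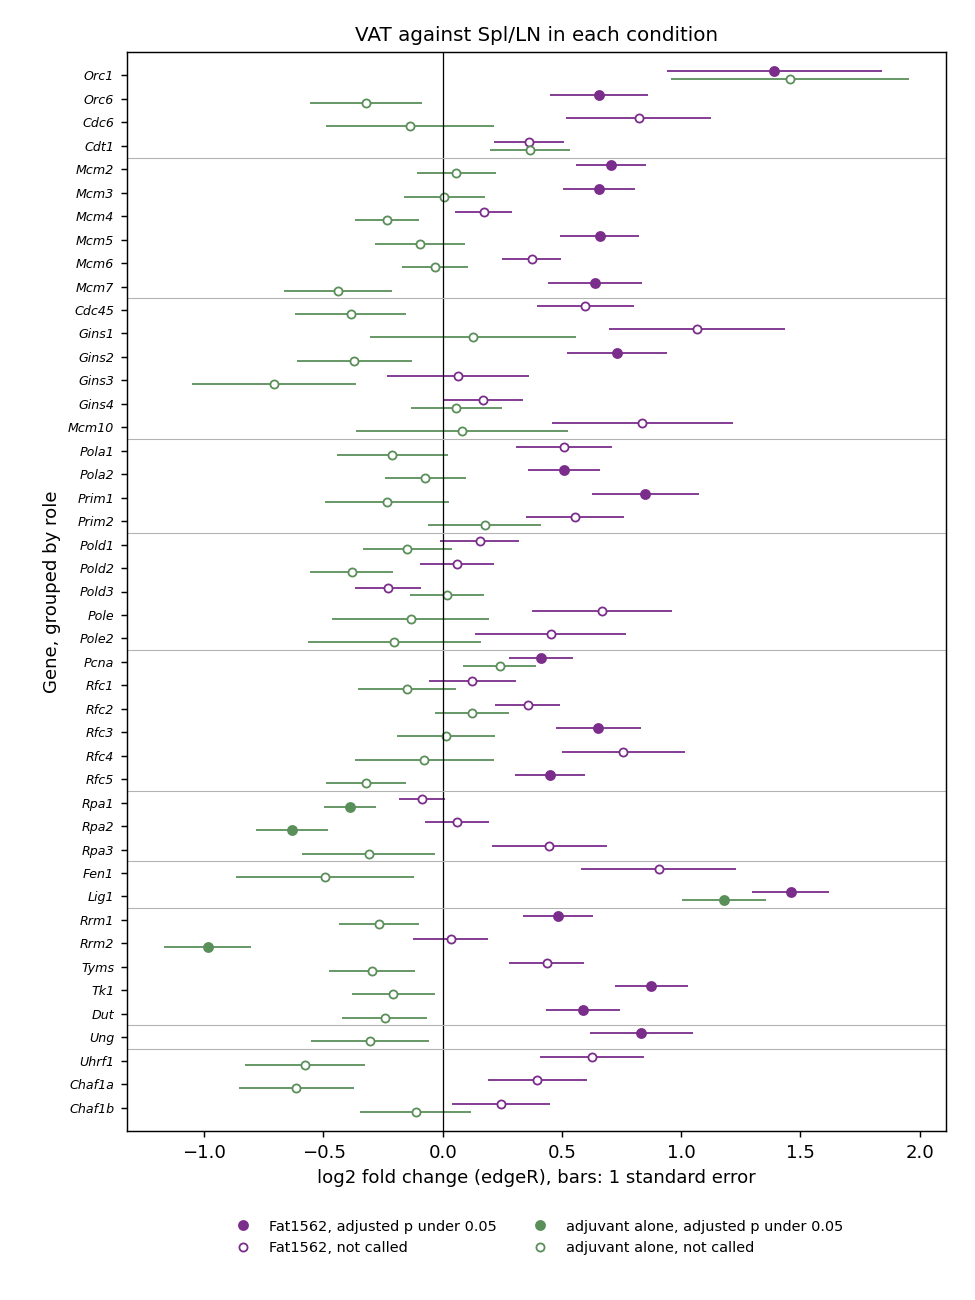
The log2 fold change of VAT against Spl/LN is plotted for each of the 45 genes with Fat1562 (purple) and with adjuvant alone (green), with bars of 1 standard error and filled points at an adjusted p under 0.05 from edgeR. With Fat1562 17 points are filled, all right of 0. With adjuvant alone Lig1 is filled on the right, and Rrm2, Rpa1 and Rpa2 on the left.

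Other genes of the same processes were described from lists of origin and fork genes, deoxynucleotide enzymes, pyrimidine and purine synthesis, and division markers. In VAT, Fat1562 against adjuvant alone, 8 of 10 division markers were called higher (Mki67, Ccna2, Ccnb1, Ccnb2, Cdk1, Aurkb, Birc5 and Cdc20) and 0 lower, with a median log2 fold change of 0.68, where 4.32% of all tested genes were called higher and 3.97% lower. Of 41 other origin and fork genes, 5 were called higher (Cdc7, Atad5, Top2a, Asf1b and Pclaf) and Tonsl lower, with a median of 0.29. The 14 other deoxynucleotide genes had Dck called higher and Tk2 lower and a median of -0.20, the 7 pyrimidine genes had Uck2 called higher, and the 19 purine and folate genes had Mthfd2 and Mthfd1l called higher. Without VAT adjuvant alone replicate 2, the counts called higher were 2 of 10 division markers (Birc5 and Cdc20, median 0.75), 1 of 41 origin and fork genes (Pclaf, median 0.27) and Mthfd2, and Tonsl and Tk2 stayed called lower. The fit without that control library had no replicate of the VAT controls and called fewer of all tested genes too. Its counts therefore cannot be set against the 4.32%. Without VAT Fat1562 replicate 2, 5 of 10 division markers and 4 of 41 origin and fork genes were called higher. Of all 12932 tested genes, 349 were called higher in that fit.

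Tk2, Pclaf and Birc5 had the smallest p of these lists in VAT. Tk2, the mitochondrial thymidine kinase, had 979 and 753 normalized counts in VAT adjuvant alone and 384, 454 and 483 in VAT Fat1562, and 781, 789 and 742 in Spl/LN adjuvant alone and 562, 483 and 563 in Spl/LN Fat1562. It was lower with the peptide in both tissues, with a change of -0.98 (log2, SE 0.14, edgeR adjusted p = 0.000207) in VAT and -0.52 (log2, SE 0.12, edgeR adjusted p = 0.0246) in Spl/LN. Pclaf, a partner of PCNA, had 279 and 199 normalized counts in VAT adjuvant alone and 532, 663 and 571 in VAT Fat1562, and 575, 391 and 532 in Spl/LN adjuvant alone and 394, 349 and 376 in Spl/LN Fat1562. Its change in VAT was 1.30 (log2, SE 0.19, edgeR adjusted p = 0.000248), and its interaction was 1.72 (log2, SE 0.24, edgeR adjusted p = 0.000628). Birc5, which acts in chromosome segregation, had 348 and 294 normalized counts in VAT adjuvant alone and 516, 608 and 640.1 in VAT Fat1562, and 669.6, 525 and 513 in Spl/LN adjuvant alone and 487, 414 and 469.9 in Spl/LN Fat1562, with a change in VAT of 0.87 (log2, SE 0.16, edgeR adjusted p = 0.00188). Pclaf and Birc5 were lower in VAT than in Spl/LN with adjuvant alone, at log2 differences of -1.06 and -0.83. Without VAT adjuvant alone replicate 2, the VAT changes were -1.16 for Tk2, 1.07 for Pclaf and 0.75 for Birc5 on the log2 scale, at edgeR adjusted p = 0.000318, 0.0111 and 0.0488.

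The other comparisons were read from the same lists. In Spl/LN, Fat1562 against adjuvant alone, 0 of 10 division markers were called. Called lower were 1 of 41 origin and fork genes (Tipin), 2 of 14 deoxynucleotide genes (Dctd and Tk2) and 2 of 19 purine and folate genes (Pfas and Impdh2). Of all tested genes, 1.40% were called lower there. With adjuvant alone, 5 of 10 division markers (Ccna2, Bub1, Plk1, Aurkb and Birc5) and 6 of 41 origin and fork genes (Dbf4, Donson, Rnaseh2b, Top2a, Asf1b and Pclaf) were called lower in VAT than in Spl/LN, and none of either list higher, where 7.17% of all tested genes were lower and 9.09% higher. With VAT adjuvant alone replicate 2 left out, 2 division markers (Birc5 and Cdc20) and 2 origin and fork genes (Donson and Pclaf) were called lower. Of the nucleotide genes in that comparison, Nme1, Cmpk1, Impdh1 and Aprt were called higher in VAT and Dck, Prps2 and Mthfd2 lower, and without that library Umps, Nme1, Cmpk1 and Impdh1 were called higher and Dck and Mthfd2 lower. With Fat1562, 3 division markers (Mki67, Ccnb1 and Cdk1), 7 of 41 origin and fork genes (Gmnn, Tipin, Clspn, Atad5, Top2a, Nasp and Pclaf) and 7 of 19 purine and folate genes (Pfas, Impdh1, Impdh2, Aprt, Shmt1, Shmt2 and Mthfd1) were called higher in VAT, and none of these lists lower, where 8.26% and 6.73% of all tested genes were. Without VAT Fat1562 replicate 2 these counts were 3, 1 and 4, where 743 of 12932 tested genes were called higher. Dctd and Nme1 of the deoxynucleotide genes and Cad, Umps and Ctps of the pyrimidine genes were also called higher, and Samhd1 and Uck1 lower. The interaction was called for Ccna2, Ccnb1, Cdk1 and Birc5 of the division markers and for Tipin, Rnaseh2b, Top2a, Pclaf and Mthfd2, all with the greater effect in VAT, as 1.70% of all tested genes were. With VAT adjuvant alone replicate 2 left out it was called for Birc5, Ccnb1, Cdc20, Pclaf and Top2a.

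Across the 11 libraries the members moved together to differing degrees. The median Pearson correlation between pairs of members was 0.58, with a range from -0.54 to 0.96, over libraries that share groups and depth. Prim1 (0.96), Dut (0.95) and Mcm5 (0.94) followed the mean of the other members most closely, and Pold3 (-0.10), Pold2 (0.01) and Gins3 (0.20) least. Of the non-members, E2f7 (0.95), Snrpf (0.93), C130089K02Rik (0.92), Cdk1 (0.91), Fam162a (0.90), Gmnn (0.90), Rpl13a (0.90), Cdca7 (0.89) and Ran (0.89) were among the highest correlations with the members' mean, each over 11 libraries, and the median non-member was at 0.01.

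Some counts are uncertain because the members share sequence with other genes. More than 20% of the 38-base stretches were found elsewhere for 6 members: Fen1 (78.6%, mostly Gm10143 on the other strand), Gins2 (65.9%, Gse1), Chaf1a (50.4%, Ubxn6), Mcm7 (29.2%, largely Gm5487), Pcna (21.7%, Pcna-ps2) and Uhrf1 (20.5%, Gm5648). Of the 14 members called in VAT after the peptide, 3 are among them. Whether strand was used in counting is not given in the sources used here, so reads of overlapping genes on opposite strands cannot be told apart.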

How the data were processed

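RNA of 1000 sorted vTreg53 Treg cells per library was sequenced for 11 libraries in 4 groups. The authors deposited 1 table of raw read counts per gene symbol, with 52997 genes. The submitters' processing notes name STAR (2.5.4), featureCounts and mm10, without roles, while the study's methods name Cuffquant. The values are whole numbers and were taken as raw counts. The annotation and strand setting are not given in the sources used here. All columns were matched to a sample by its label.

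From the deposited counts, 12932 genes were kept, whose mean in some group, at the mean library total, exceeded 10. Counts were normalized by TMM, and 1 quasi-likelihood model of the 4 groups was fitted in edgeR (4.0.16, R 4.3.3), with Benjamini-Hochberg adjustment over all tested genes and calls at an adjusted p under 0.05. Printed values are TMM-normalized counts, scaled to the mean library. The common biological coefficient of variation was 19.1%. Totals were 4490242 to 6570057 counts, with 2 or 3 libraries per group. The script was tested on simulated counts with known changes.

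The 5 comparisons were the peptide effect in each tissue, the tissue difference in each condition, and their interaction. They share libraries, so their values are not independent. Alternatives were no filter, a mean above 50, a coefficient of variation under 0.7, median-of-ratios factors, quantile normalization with limma (3.58.1), DESeq2 (1.42.0), only the groups compared, a replicate block, and each library left out. Full values were given for the 12 members with the smallest p in VAT after the peptide, for up to 6 called members of each other comparison, for the uncalled members with the largest and smallest change in VAT, and for the 3 non-members of the pathway lists with the smallest p there. Other called genes were named. Of the 10 most correlated non-members, 9 were listed, and 1 gene is not reported here. Any further member value was chosen after its values were seen. The members and lists were chosen with earlier results of these data known. Gene positions are from GENCODE vM21 (GRCm38) and promoters from RefSeq (GRCm38.p6), and 7 members had no promoter there.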

Additional observations from a re-analysis of the deposited data

Results flagged for a closer look

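The response of Tk1 to Fat1562 differed between the tissues by the interaction term, with a log2 difference of 1.08 between the VAT and Spl/LN effects (adjusted p = 0.0131, edgeR's quasi-likelihood test). Without VAT adjuvant alone replicate 2 the interaction was 0.86 and no longer called (adjusted p = 0.0955, edgeR). Its log2 fold changes were 0.65 in VAT and -0.43 in Spl/LN. Rrm2 differed likewise, with an interaction of 1.02 (adjusted p = 0.0229, edgeR) from 0.71 in VAT and -0.31 in Spl/LN. It was no longer called without Spl/LN adjuvant alone replicate 1, Spl/LN Fat1562 replicate 2, VAT adjuvant alone replicate 2 or VAT Fat1562 replicate 2, and without VAT adjuvant alone replicate 2 it was 0.67 (adjusted p = 0.103, edgeR).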

How the results depend on the processing

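Of 37 calls of a member in a comparison, 5 held under every alternative run (Lig1 in VAT against Spl/LN in both conditions, Rrm2 with adjuvant alone, Mcm2 and Tk1 with Fat1562), 32 were lost with at least 1 library left out, 8 under at least 1 other alternative, and 0 reversed. Leaving out 1 library moved the members called higher to 0 to 15 in VAT after the peptide, 1 to 2 in VAT against Spl/LN with adjuvant alone (1 to 8 lower), 3 to 17 with Fat1562 and 0 to 11 for the interaction, and left Spl/LN at 0. Over all genes the counts were 509 to 823 in VAT (1073 with all libraries), 190 to 483 in Spl/LN (515), 1250 to 2106 between tissues with adjuvant alone (2102), 1287 to 1710 with Fat1562 (1938) and 236 to 580 for the interaction (481). Without the filter, members called were 2 higher and 5 lower with adjuvant alone and 13 for the interaction, and all genes called in Spl/LN were 793. DESeq2 gave 2 higher with adjuvant alone, 11 for the interaction, 793 genes in Spl/LN and 776 for the interaction. The interaction count was 7 with a mean above 50, 8 with a coefficient of variation under 0.7 and 5 with limma after quantile normalization, against 2. Fitting only the groups compared gave 29 members with Fat1562, against 17, and 2586 of all genes, against 1938. The cause of these moves was not tested. Quantile normalization changed the split of calls in Spl/LN from 334 higher and 181 lower to 292 and 241, and turned the majority in VAT after the peptide (559 and 514 to 470 and 531) and between tissues with Fat1562 (1068 and 870 to 1002 and 1023). Between the tissues, the deviations of libraries of the same number correlated at 0.030 to 0.055, above those of differing numbers (-0.058 to 0.028). Between the peptide and adjuvant groups, which were different recipients, the same numbers gave -0.040 to -0.002 and differing numbers -0.019 to 0.040. Deviations within a group sum to 0, so the values of same and differing numbers are not independent. The labels do not tie the numbers to mice, so the main fit did not take them as pairs. Whether the tissues of a number came from the same recipients is not given in the sources used here. A fit with a replicate block gave 17 members in VAT after the peptide, 19 with Fat1562, 1 higher and 3 lower with adjuvant alone, 0 in Spl/LN and 9 for the interaction. Depth was thinnest for Fen1 and Orc1, with highest group means of 62.9 and 73.6.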
